A study of Mus musculus with 2 samples.

Results

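Open chromatin was mapped at 10 endothelial and endocardial genes, Kdr, Flt1, Flt4, Tek, Tie1, Pecam1, Cdh5, Emcn, Npr3 and Nfatc1, out of 21755 protein-coding genes on the 20 chromosomes used. The genes were chosen by name, and the regions considered were those open in both replicates within 1 kb of an annotated start (GENCODE M21, mm10) or in the gene body plus 50 kb on each side, here called the locus. The loci held 137 such shared regions of 98924 in all. The hearts came from wildtype FVB embryos at E11.5 with 49 to 51 somites, and each of the 2 replicates was a pair of dissociated whole hearts. ATAC-seq inserts sequencing adapters into accessible DNA with the Tn5 transposase, so piled-up reads mark open chromatin. Both replicates belong to 1 group, and no condition, stage or cell type was compared. Endothelial and endocardial cells were not separated from the rest of the heart, and in such bulk tissue fewer cells with an open site and a less open site per cell cannot be told apart.

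The endothelium lines the vessels, and the endocardium is the specialized endothelium that lines the heart chambers and later builds the valves. Both depend on VEGF signalling through the receptor tyrosine kinases encoded by Kdr (VEGFR2), Flt1 (VEGFR1, which also acts as a decoy for the ligand) and Flt4 (VEGFR3, the receptor for VEGF-C), and on angiopoietin signalling through Tek (Tie2) and the related orphan receptor Tie1. Pecam1 and Cdh5 (VE-cadherin) encode adhesion molecules of endothelial junctions, Emcn a surface sialomucin, Npr3 the natriuretic peptide clearance receptor, and Nfatc1 the calcineurin-dependent transcription factor required for valve formation, the only gene of the 10 that does not encode a surface protein.

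For Kdr, Flt1, Tek, Tie1, Pecam1 and Npr3, the region inside the gene that stood highest away from the starts is shown first as sequence. For Emcn the region shown is the highest of its upstream flank. Some of the values that follow are about these regions. Each line gives the replicate 1 summit with 100 bases on each side, read from the RefSeq GRCm38.p6 reference (strain C57BL/6J, not the FVB strain of the hearts). Capitals mark matches on either strand to the ETS words CCGGAA and AGGAAG, the GATA words AGATAA and TGATAA and the FOX word TAAACA. ETS and GATA factors are known regulators of endothelial genes. For Flt4 the highest region covers untranslated sequence, so its sequence is not shown, and none is shown for Nfatc1. Those of Cdh5 and the gene body of Emcn, with mean fold enrichments of 7.45 and 4.75, are not shown either. They were lower than that of Tie1 (8.42). The Cdh5 window held 1 ETS match, and the window in the Emcn body held none of the words.
Kdr, chr5:75962272-75962472, plus strand: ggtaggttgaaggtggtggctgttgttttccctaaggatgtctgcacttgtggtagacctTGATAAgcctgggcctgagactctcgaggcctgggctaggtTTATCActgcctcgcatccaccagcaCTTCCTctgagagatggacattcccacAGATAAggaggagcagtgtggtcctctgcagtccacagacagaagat
Flt1, chr5:147657953-147658153, plus strand: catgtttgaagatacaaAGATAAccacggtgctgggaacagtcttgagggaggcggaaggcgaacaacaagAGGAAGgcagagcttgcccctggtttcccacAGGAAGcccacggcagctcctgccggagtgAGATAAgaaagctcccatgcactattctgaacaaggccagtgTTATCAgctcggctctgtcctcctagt
Tek, chr4:94752567-94752767, plus strand: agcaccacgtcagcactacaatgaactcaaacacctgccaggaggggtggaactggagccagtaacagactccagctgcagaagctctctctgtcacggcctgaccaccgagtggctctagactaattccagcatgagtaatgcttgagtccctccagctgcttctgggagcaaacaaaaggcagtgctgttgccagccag
Tie1, chr4:118485406-118485606, plus strand: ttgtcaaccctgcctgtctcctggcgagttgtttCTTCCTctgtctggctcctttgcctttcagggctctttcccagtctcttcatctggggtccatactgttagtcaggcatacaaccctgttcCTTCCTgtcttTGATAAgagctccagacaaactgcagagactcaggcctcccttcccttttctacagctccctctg
Pecam1, chr11:106677952-106678152, plus strand: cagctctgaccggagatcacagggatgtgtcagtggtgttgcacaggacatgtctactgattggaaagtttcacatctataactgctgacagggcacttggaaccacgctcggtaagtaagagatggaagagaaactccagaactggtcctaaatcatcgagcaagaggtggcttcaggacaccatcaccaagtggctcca
Npr3, chr15:11897229-11897429, plus strand: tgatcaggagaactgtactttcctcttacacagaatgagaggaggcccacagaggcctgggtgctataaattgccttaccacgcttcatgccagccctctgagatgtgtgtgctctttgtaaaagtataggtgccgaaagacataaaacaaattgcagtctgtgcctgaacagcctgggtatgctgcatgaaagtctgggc
Emcn, upstream, chr3:137293267-137293467, plus strand: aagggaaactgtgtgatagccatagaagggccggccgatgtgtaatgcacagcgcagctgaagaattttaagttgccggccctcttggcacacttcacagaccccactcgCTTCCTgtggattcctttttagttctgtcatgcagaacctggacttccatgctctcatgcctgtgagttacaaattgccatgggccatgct
The Kdr window held 3 GATA matches and 1 ETS match, the Flt1 window 3 and 2, and the Tie1 window 1 and 2. In the Emcn window there was 1 ETS match, and the Tek, Pecam1 and Npr3 windows held none of the 5 words. A match is a description of the letters and not a binding site.

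Every value below is a fold enrichment, the ratio that the peak caller gave at a summit between the reads piled up there and a single genome-wide background, each plus 1. The steps of this ratio put the background at 2.68 reads in replicate 1 and 2.98 in replicate 2, so that the pileups behind the values are known to the read. Replicate 1 held 118027 peaks in all and replicate 2 held 114783. The same shared region differed between the replicates by a median of 1.22-fold over the 137 regions, against 1.19-fold over all 98850 shared regions on the chromosomes used, and replicate 1 was the higher in 105 of the 137 and in 65488 of all. This spread, and not a test, is the error to hold beside each value, because 1 group of 2 replicates allows no test.

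All 10 genes had a shared region at a start, where 68.1% of protein-coding genes did. Of their 38 annotated starts 31 had one, against 58.2% of the 93196 starts of all protein-coding genes. Among the VEGF receptors, the only annotated start of Kdr lay in a region of 1708 bp (chr5:75977664-75979371) which had 16.8 in replicate 1 and 16.1 in replicate 2, from pileups of 61 and 63 reads. Flt4 had 12.0 and 11.1 at its single start (chr11:49609207-49610569). At the outer pair of Flt1 starts (chr5:147725068-147726606) the values were 12.2 and 9.55. Flt1 has a further start 79.2 kb into the gene, which had a low region (4.62 and 3.52), and the other two had none. None of these inner Flt1 starts belongs to a transcript annotated as protein-coding.

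For the angiopoietin receptors, the 3 clustered starts of Tek shared a region at chr4:94738636-94739927 with 13.6 in replicate 1 and 14.6 in replicate 2, and a smaller region at the edge of the window upstream had 5.70 and 6.54. The fourth Tek start, 65.6 kb downstream, had no region within the window, the nearest lying 1143 bp away. This start belongs only to a transcript that is not annotated as protein-coding. Tie1 had 13.0 and 9.05 in a compact region of 476 bp over its 3 starts (chr4:118489669-118490144). Tek was thus alike in the replicates, whereas Tie1 was higher in replicate 1.

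Of the junction genes, Cdh5 had 11.4 and 8.55 at its outer start (chr8:104101361-104102001) and only 3.80 and 4.02 at the inner one. Pecam1 was the lowest of the 10, with 4.89 and 3.77, from pileups of 17 and 14 reads, in a 211-bp region (chr11:106715116-106715326) that served 5 of its 8 starts, among them the start of the longest coding transcript. The outermost Pecam1 start, 35.2 kb upstream of that one, had no peak in either replicate, and its nearest shared region lay 11358 bp away.

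Emcn had 8.15 and 5.78 at its 4 starts, which lie within 107 bp of one another (chr3:137340916-137341436). Npr3 had 3 regions across its outer 4 starts. The highest by the mean had 11.4 and 8.55 (chr15:11905999-11907516). Its replicate summits lay 1011 bp apart, so these are not values of a single site. The neighbouring region had 10.9 and 8.80, which was the higher in replicate 2, and both also lie at the start of Gm5144. Nfatc1 had regions at all 5 starts. At its outermost start the values were 13.3 and 9.55 (chr18:80712221-80713534), but at the start 4.90 kb further in they were 16.6 and 15.1, and at the start 104 kb downstream 15.2 and 13.8. The start 104 kb downstream belongs only to a transcript that is not annotated as protein-coding. A separate region just outside the 1 kb window, centred 1.97 kb upstream of Nfatc1, had 13.0 and 12.6.

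**Figure D1:**
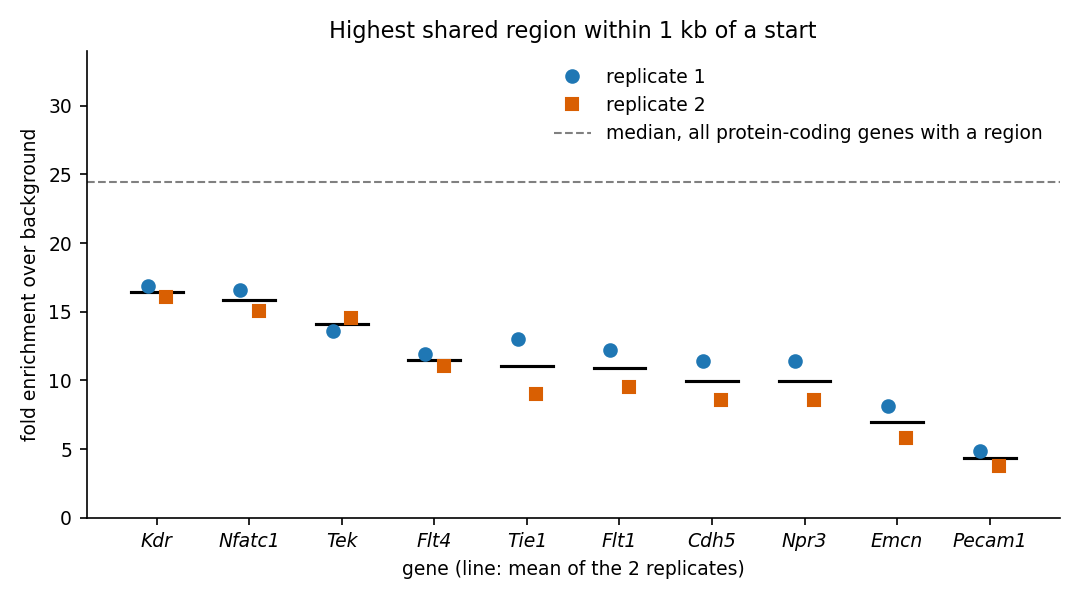
Fold enrichment of the highest shared region within 1 kb of a start for each of the 10 genes, with a circle for replicate 1, a square for replicate 2 and a line at their mean. All 10 genes lie below the dashed median of 24.5 of all protein-coding genes with such a region, and Kdr and Nfatc1 stand highest.

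Ordered by the mean of both replicates, the highest region at a start ran from Kdr (16.5 ± 0.531, SD, n = 2) and Nfatc1 (15.8 ± 1.05) through Tek (14.1 ± 0.707), Flt4 (11.51 ± 0.629), Tie1 (11.0 ± 2.82) and Flt1 (10.9 ± 1.89) to Cdh5 and Npr3 (both 9.98 ± 2.02), Emcn (6.97 ± 1.67) and Pecam1 (4.33 ± 0.791). The replicate ranges overlapped between Kdr and Nfatc1 and between each pair of neighbours from Flt4 to Npr3. Replicate 1 was mostly the higher, so these ranges also hold a difference between the replicates. Within each replicate Kdr stood above Nfatc1 and Flt1 above Cdh5. Flt4 and Tie1, and Tie1 and Flt1, changed order between the replicates, and Cdh5 and Npr3 were equal. The ranges did not overlap between Nfatc1 and Tek, Tek and Flt4, Npr3 and Emcn, or Emcn and Pecam1. All 10 means were below the median of 24.5 over protein-coding genes with a region, at percentiles from 1.77 (Pecam1) to 29.8 (Kdr).

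Promoters rich in CpG are commonly open in many tissues, so the genes were also described by the ratio of observed to expected CpG in the 500 bp on each side of a start. Below 0.6 at every start were 5 of the genes, namely Cdh5 (at most 0.24), Pecam1 (0.29), Tek (0.32), Tie1 (0.33) and Emcn (0.33). All 5 had a shared region at a start, where 37.7% of the 10233 protein-coding genes of this kind did, and the median of the highest mean fold enrichment among those with a region was 12.8. Kdr (0.67), Flt4 (0.81), Flt1 (0.81), Nfatc1 (0.90) and Npr3 (1.03) were above that limit, in a class where 95.2% of 11522 genes had a region and the median fold enrichment was 27.6. Tek alone of the CpG-poor genes stood above the median of its class, and all 5 CpG-rich genes stood below theirs. The 150 bases before the RefSeq start of Tek and Flt1 show the contrast, with each CpG in capitals.
Tek promoter, chr4:94739139-94739288, plus strand: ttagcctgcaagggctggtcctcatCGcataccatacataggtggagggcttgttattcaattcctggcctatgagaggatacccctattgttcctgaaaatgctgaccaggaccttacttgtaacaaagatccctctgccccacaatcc
Flt1 promoter, chr5:147726012-147726161, minus strand: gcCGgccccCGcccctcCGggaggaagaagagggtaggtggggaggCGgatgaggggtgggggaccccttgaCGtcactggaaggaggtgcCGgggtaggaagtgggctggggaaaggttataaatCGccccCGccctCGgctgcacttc
The Tek stretch held 1 CpG and the Flt1 stretch 9, beside a median of 7 over 20061 RefSeq promoters of protein-coding genes. RefSeq promoters were matched for 7 of the 10 genes. From 250 bases before to 50 after these starts, AGGAAG occurred in 3 of the 7 (Emcn, Tie1 and Flt1), against 34.1% of all promoters, and CCGGAA in 1 (Kdr), against 19.2%.

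Away from the starts, all 10 genes held distal shared regions inside the gene body, meaning over 1 kb from every annotated start of any gene, and 40.6% of protein-coding genes did. Long genes have more room for such regions, and among the 9115 genes within the range of length of the 10 (18.9 to 164 kb) the share was 62.7%. The 66 distal regions inside the genes numbered 17 in Nfatc1, 15 in Flt1, 8 each in Tek and Pecam1, 5 in Flt4, 4 each in Kdr and Emcn, 2 each in Cdh5 and Npr3 and 1 in Tie1. These are counts of shared stretches and not of separate sites. Adjoining stretches can belong to the same peak of a replicate, as for a stretch of 8 bp in intron 16 of Flt1. The median was 4.5 per gene, against 1 for genes in the same range of length. Only the range was matched, and not the lengths within it. The median length of the 10 genes was 79.3 kb, against 17.4 kb for all protein-coding genes. Of the 66, 8 overlapped an annotated exon of the gene and the others did not.

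A distal region with a mean fold enrichment of at least 10 lay inside 7 of the 10 genes, against 15.5% of all protein-coding genes and 22.9% of those in the range of length. This limit was chosen after the values were seen. Tie1, Cdh5 and Emcn had none.

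By the mean of the replicates the highest of the 66 was in intron 10 of Flt1, 67.8 kb from the start (chr5:147657463-147658873), with 21.7 in replicate 1 and 19.4 in replicate 2. It stood above the Flt1 start regions in both replicates. In intron 12 of Flt1, another region 80.7 kb from the start that overlaps an exon had 10.9 and 10.1. Its centre was 1453 bp from the inner Flt1 start at 79.2 kb. The remaining 13 had means of 9.07 or lower.

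Kdr likewise had its highest distal region inside the gene in intron 10 (chr5:75961742-75963078), 16.0 kb from the start and overlapping an exon. It differed more between the replicates, with 16.0 in replicate 1 and 22.4 in replicate 2 from pileups of 58 and 88 reads, although the summits lay 12 bp apart. The replicate ranges of this Kdr region and of the Flt1 one overlapped, and in replicate 2 the Kdr region was the higher. In replicate 1 the region was below the Kdr start. The next was in intron 27 (8.69 and 7.29), and the first intron of Kdr, which spans 3.61 kb, held no distal shared region.

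Flt4 was highest near its 3′ end, 42.0 kb from the start (chr11:49650434-49652129), with 15.8 and 19.9. Beyond the end of Flt4 a region 49.5 kb from the start had 14.9 and 10.3, and one at 43.8 kb had 12.0 and 12.1. All 3 lie nearer to the start of Scgb3a1 than to that of Flt4, so that position alone does not assign them to the receptor.

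Tek carried 5 distal shared regions in its first intron, of 41.1 kb. The highest was 13.3 kb from the start (chr4:94752301-94752927), with 18.7 and 19.1 and summits 5 bp apart. The shared stretch 12.6 kb from the start belongs to the same replicate 1 peak. A further one 6.85 kb from the start had 15.2 and 14.3. Another in intron 4, 64.1 kb into the gene, had 14.7 and 12.3, and its centre was 1446 bp from the fourth Tek start. Tie1, the shortest of the 10 genes, held 1 region in intron 3 (chr4:118485308-118485799) with 10.1 and 6.79, below its own start in both replicates.

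Among the junction genes, Pecam1 had 10.6 and 10.1 in intron 13 (chr11:106677606-106678312), above its start in both replicates. A region between its outermost and main starts (chr11:106722811-106723543) had 7.61 and 10.8. Cdh5 had no comparable site inside the gene. Its 2 distal intronic regions had 7.61 and 7.29 in intron 1 and 6.52 and 5.28 in intron 4. Regions clustered instead just upstream, within the antisense transcript Gm29682, with 9.24 and 8.30 at 4.82 kb from the start, and a region inside Bean1, 90.0 kb downstream, had 10.9 and 8.30.

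Emcn was weakly open throughout its body, where the 4 distal regions had values from 3.52 to 5.98. The highest distal region of all 10 loci was nevertheless in its upstream flank, 47.7 kb from the start (chr3:137292997-137293702), with 27.4 in replicate 1 and 23.4 in replicate 2 from pileups of 100 and 92 reads. It lies inside the noncoding gene Gm567 and close to the end of the 50 kb flank, and Emcn has the nearest coding start. A second upstream region, 38.0 kb away, had 12.8 and 8.04.

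Npr3 had 1 strong distal region, in its first intron 8.30 kb from the start (chr15:11897071-11897605), with 17.1 and 12.6, and its next highest, 69.2 kb from the start and beyond the gene, had 6.52 and 6.28. Nfatc1 had its highest in intron 6, 57.2 kb from the start (chr18:80655409-80656389), with 19.6 and 14.6, and another 87.9 kb from the start with 18.5 and 13.1. Both Nfatc1 regions were higher in replicate 1.

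**Figure D2:**
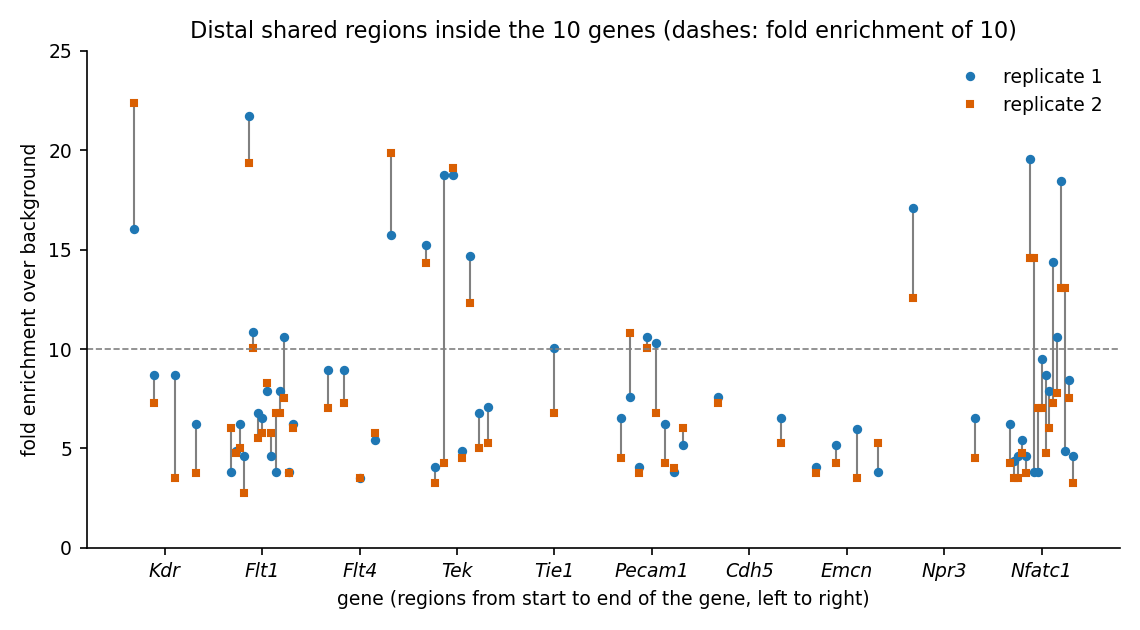
Fold enrichment of the 66 distal shared regions inside the 10 genes, placed from the start to the end of each gene, with a circle for replicate 1, a square for replicate 2 and a line joining them. The highest are those of Flt1, Kdr, Flt4, Tek, Nfatc1 and Npr3, while every region of Cdh5 and Emcn stays under 10. Long joining lines, as for a Tek region with 18.7 and 4.27, can come from a value whose summit lies outside the shared part of the peak.

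Compared within each gene, the highest distal region inside the gene exceeded the highest region at a start in 7 of the 10 genes by the mean of the replicates, and this was so for 14.3% of the 7746 protein-coding genes that have both kinds of region. In each replicate by itself it held for 5 genes, Flt1, Flt4, Tek, Pecam1 and Npr3, against 11.9% of all and 10.8% of those within the range of length. Kdr did so in replicate 2 and not in replicate 1, and Nfatc1 in replicate 1 and not in replicate 2. The start regions of these genes were themselves low among all genes, which makes it easier for a distal region to exceed them. This comparison was chosen after the values were seen.

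**Figure D3:**
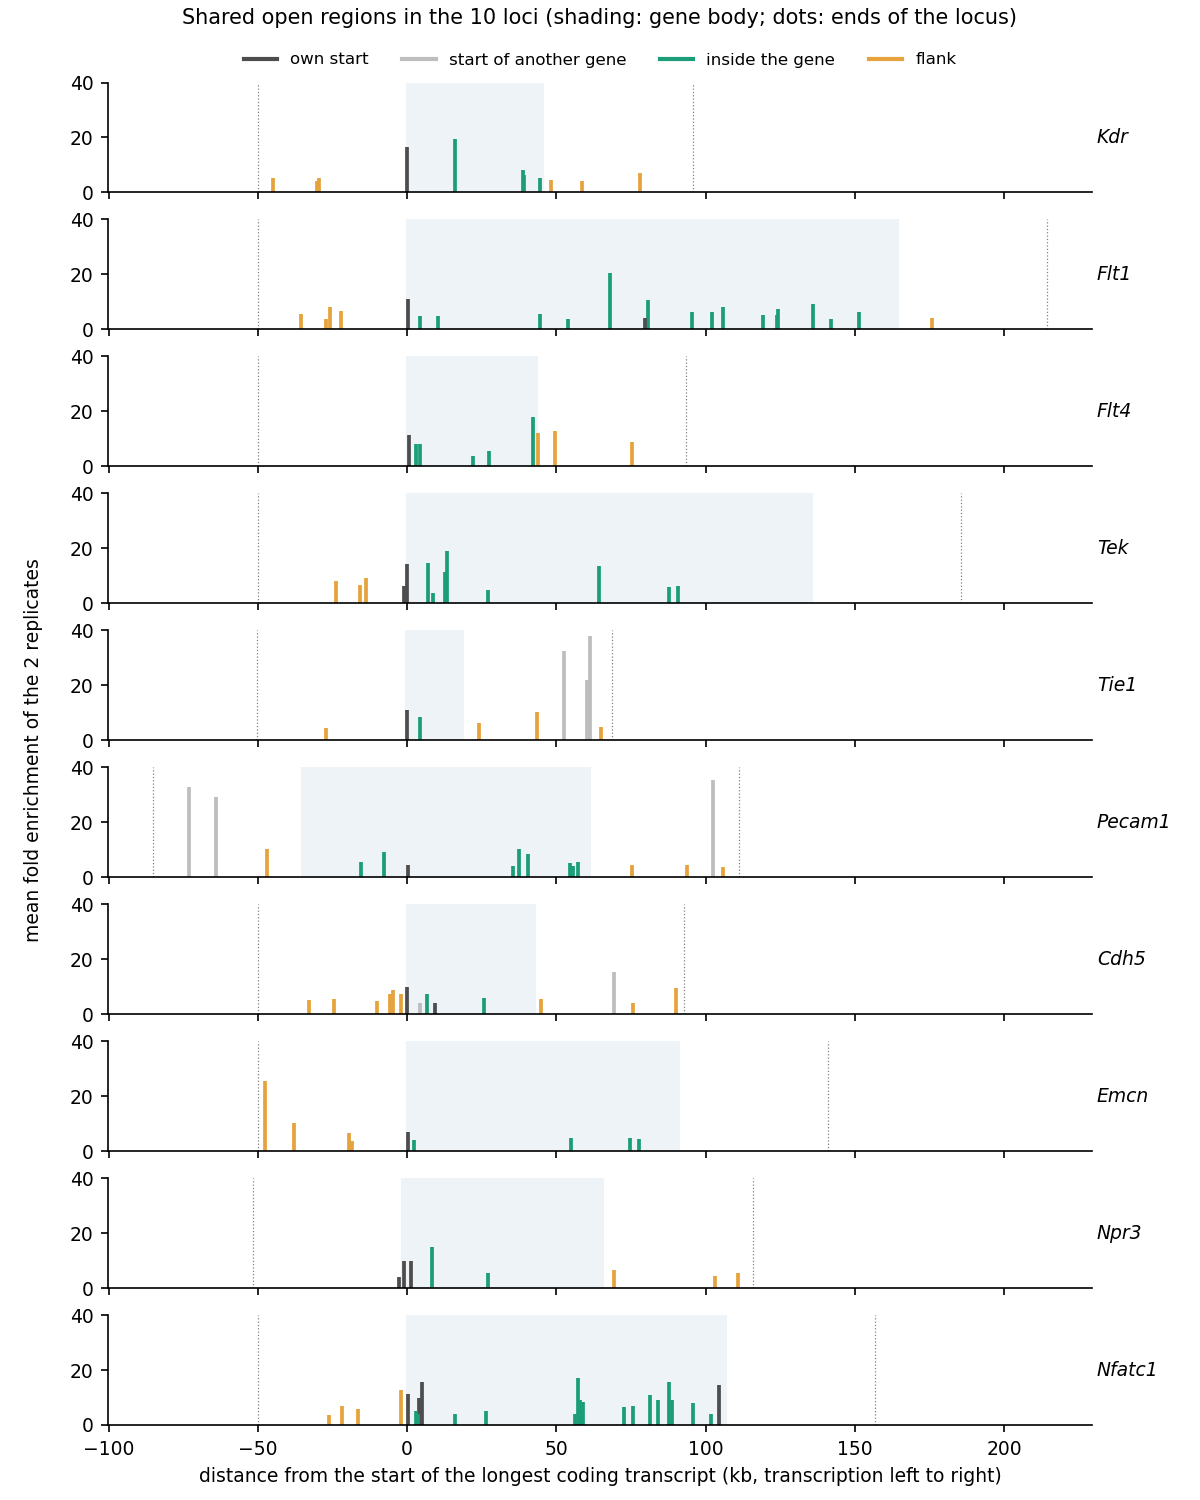
Mean fold enrichment of the 137 shared regions against the distance from the start of the longest coding transcript of each gene in kb, with transcription from left to right, shading over the gene body and dotted lines at the ends of each locus. The tallest bars in the Tie1, Pecam1 and Cdh5 loci are at starts of other genes, whereas in the Emcn locus the tallest is far upstream and in the others it stands inside the gene.

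Over the whole loci, 18 of the 137 regions lay at a start of the gene itself, 8 at a start of another gene, 66 inside the gene and 45 in the flanks. The 8 at other starts were in the Tie1 (Elovl1, Cdc20), Pecam1 (Tex2, Polg2, Ddx5 and Cep95) and Cdh5 (Bean1, Gm29682) loci. They included the highest values of these loci, up to 39.4 and 36.5 at Elovl1. For 110 of the 137 the nearest coding start was that of the gene in question, but this was so for only 2 of 9 in the Tie1 locus and 4 of 9 in the Flt4 locus. Pecam1 also had a region of 10.9 and 9.80 within the neighbouring gene Milr1.

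Region density ran from 4.71 per 100 kb at Emcn to 12.1 at Nfatc1, with a median of 7.56 over the 10 loci, against 5.46 over all protein-coding loci (the 66.2nd percentile). Nfatc1 (the 88.5th percentile) and Cdh5 (10.5 per 100 kb, the 82.2nd) were the densest. Emcn, at 4.71, and Npr3, at 4.78, were below the median of all loci, Tek was close to it at 5.52, and the others were between 6.27 and 8.32. With the peaks of replicate 2 alone, Flt4 rose from 6.27 to 9.76 per 100 kb (14 regions in place of 9) and Kdr from 7.55 to 11.7 (17 in place of 11), and Cdh5, at 11.9, and Kdr then stood above Nfatc1, at 11.1. Cdh5 (10.7) was also above Nfatc1 (9.78) with flanks of 100 kb. High density did not go with high single regions in every locus, as Cdh5 had many low regions and Emcn few regions but the highest distal one.

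**Figure D4:**
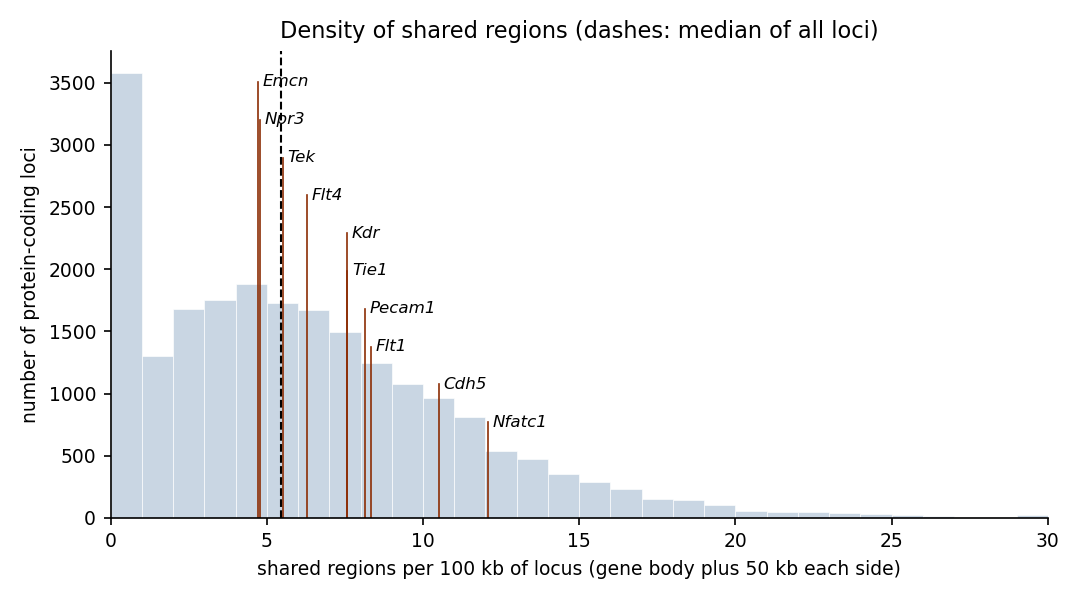
Number of protein-coding loci by shared regions per 100 kb, in bars of width 1, with vertical lines for the 10 loci and a dashed line at the median of all loci (5.46); the last bar also holds denser loci. Emcn and Npr3 are to the left of the dashed line, and Cdh5 and Nfatc1 farthest to the right.

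As for sequence shared by the distal regions, 63 windows of 100 bp on each side of the replicate 1 summits of the distal regions inside the genes were compared with the 72106 windows of all distal shared regions, counting each summit once and both strands. An ETS word (CCGGAA or AGGAAG) occurred in 34.9% of the 63 and in 32.2% of all, and a GATA word (AGATAA or TGATAA) in 28.6% and 31.4%. The FOX word TAAACA was in 19.0% against 12.3%, the TEAD word GGAATG in 22.2% against 16.5%, the AP-1 word TGANTCA in 6.35% against 9.65%, and the E-box CAGCTG in 17.5% against 18.9%. The CTCF word AGNGGGCNC, added after the data were seen, was in 4.76% against 3.94%. ETS and GATA words were thus about as frequent in these windows as in the distal regions of the heart at large, even though the Kdr and Flt1 windows held several.

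The partners of these genes were open at their starts as well. All 28 genes of a list of ligands, co-receptors and downstream components had a shared region there, beside the 68.1% of all protein-coding genes, with a median of 16.2 of the highest mean fold enrichment. The list was not divided by CpG ratio and holds both kinds, as with Ppp3ca (0.95) and Npr2 (0.55). Of protein-coding genes with a ratio of 0.6 or more at a start, 95.2% had a region. The lowest was Npr2, a guanylyl cyclase receptor for natriuretic peptides (8.42 in replicate 1 and 5.53 in replicate 2), and the highest Ppp3ca, a catalytic subunit of calcineurin, which activates NFATc1 (55.4 and 54.3). By role, the medians were 14.0 over 5 VEGF ligands, 17.3 over the co-receptors Nrp1 and Nrp2, 10.2 over 3 angiopoietins, 16.4 over 3 natriuretic peptides, 8.38 over the natriuretic receptors Npr1 and Npr2, 36.2 over 7 calcineurin and NFAT genes and 21.0 over 5 junction partners. Ptprb, the phosphatase that acts on Tie2 and VE-cadherin, had 8.42 and 8.55. A distal region with a mean of at least 10 lay inside 12 of the 28, beside the 15.5% of all protein-coding genes given above, a share that is not matched to the lengths of the 28.

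The heart label was set against marker genes of several cell types. All 10 cardiomyocyte and all 5 epicardial markers had a shared region at a start, as did 5 of 6 blood markers (none at Ptprc) and all 10 further endothelial markers. With 68.1% of all protein-coding genes having one, these counts say little about cell type. Over the genes with a region, the median of the highest mean fold enrichment was 15.2 for cardiomyocyte, 15.5 for blood, 9.58 for epicardial and 8.83 for the further endothelial markers, beside 11.0 for the genes described here. Of 10 markers of tissues other than heart, none was found at Alb, Ins2, Krt5, Krt14, Neurod1 or Sftpc. The other 4 had a region, with means of 9.92 at Tyr, 8.63 at Olig2, 5.21 at Myod1 and 4.29 at Cdx2, so that Tyr and Olig2 stood above Emcn and Pecam1. Blood cells share Pecam1 and Tek with endothelium, and the part of blood cells in these values was not tested.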

How the data were processed

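ATAC-seq peak lists of 2 replicates of wildtype E11.5 hearts were used. Per the labels and the study's methods, reads had been trimmed (Trim Galore 0.6.6, Cutadapt) and aligned to mm10 (GRCm38) by Bowtie2 2.4.2, and SAMtools 1.12 had been used to drop duplicated and poorly mapping reads, so repeated sequence is underrepresented. MACS2 then called peaks for every replicate separately, without a local background. The largest deposited p-values (0.000476 and 0.00104) lie below the p-value limit that the methods state, so "no peak" means none in these shorter lists. The largest q-values were 0.0194 and 0.0425. The deposited lists give fold enrichment (a ratio), −log10 p-values and q-values at each summit, and a score, which is the authors' −log10 q-value times 10. Total read numbers are not given in the sources used here.

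Shared regions are the parts of replicate 1 peaks covered by replicate 2 peaks by at least 1 bp (bedtools 2.31.1), merged, with the highest overlapping peak of each replicate as its value. For 15 of the 137 regions the summit of such a peak lay outside the region in a replicate, so the value was read outside the shared part of that peak. Introns and distances follow the longest coding transcript. Sequences came from RefSeq GRCm38.p6, and no shared region lay beyond the end of its chromosome there. The named regions are those at the starts and the 2 highest distal regions of each locus, and the highest inside the gene, except 1 that is not reported here; others were named after their values were seen. Overlaps were tested on simulated data, where 4200 of 4200 pairs were found. The genes and lists were chosen with earlier results of these data known. With 1 group, no test was made. Alternatives covered peak limits, overlap, replicates, windows, starts and flanks.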

Additional observations from a re-analysis of the deposited data

How the results depend on the processing

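The 10 genes with a region at a start became 9 at a q-value limit of 1e-10 and 9 with the outermost start only, Pecam1 being the one lost each time, and stayed at 10 under the other alternatives. With a single start per gene, the starts with a region fell from 31 to 9 by construction. The pathway genes ranged from 25 to 28, and the genes with a distal region inside from 9 to 10. The 137 regions in the loci became 66 at the q-value limit of 1e-10 and 83 with no flank. Leaving out a replicate gave 161 to 168 regions, a median density of 8.99 to 9.72 per 100 kb and a percentile of 68.5 to 73.3. Median density, 7.56 per 100 kb, was 3.67 at the q-value limit, 6.80 with a reciprocal overlap of 50%, 10.5 with no flank, 8.12 and 7.03 with flanks of 20 and 100 kb, 6.45 without regions at starts of other protein-coding genes and 5.84 without regions at any start. Its percentile, 66.2, was 61.8 at the q-value limit, 75.9 and 80.0 in the latter pair of cases, and 62.1 with base pairs in place of regions, a setting in which counts and density are in another unit and are not given. The cause of these moves was not tested beyond what each setting removes by construction. The Emcn region at 47.7 kb lies outside the 20 kb flank. At starts, the value of Nfatc1 was 11.4 with the outermost start only. Of 100 counts of single loci 25 moved by over 1.5 times, among them Kdr and Flt4 without replicate 1. Nfatc1 was the densest of the 10 loci in 9 of 11 settings and Cdh5 in 2. No paired analysis was possible because there is only 1 group. Pileups as low as 10 reads lie behind the weakest regions, so that their order is not resolved.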

Other observations

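Of the peaks in the 10 loci, 36 of 168 in replicate 1 and 29 of 161 in replicate 2 overlapped no peak of the other replicate. The highest of them reached 5.70 in replicate 1 and 6.28 in replicate 2, below the highest shared region of every locus. Nfatc1 held 12 of those of replicate 1 and 2 of those of replicate 2, so that its locus held the most peaks seen in 1 replicate only.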
